A study of Mus musculus with 12 samples.

Results

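The genes described here are 9 that mark macrophages and other myeloid cells: Spi1, Csf1r, Adgre1, Itgam, Cd14, Mrc1, Trem2, Cd68 and Lyz2. They are 9 of 21938 protein-coding genes of the GENCODE M21 mouse annotation on chromosomes 1 to 19, X and Y. A peak was counted at a gene when at least 1 bp of it lay in the gene body or within 3 kb of any annotated transcript start of that gene. MOF (also called KAT8) acetylates histone H4, and its position on the genome was measured by ChIP-seq. The tissue was visceral white adipose tissue (WAT) of C57BL/6 mice, 8 weeks old and kept on a standard diet. One genotype was wild type (Mof+/+), and the other was heterozygous for Mof (Mof+/-). The labels give 12 libraries in 6 groups of 2, which are MOF ChIP, H3 ChIP and input DNA in each genotype. The strain is given as in the labels, and by the study's methods all strains were backcrossed to C57BL/6J. The labels name the sample as visceral white adipocyte, but the protocol minced whole WAT and describes no sorting, so nuclei of every cell type of the tissue could enter. By the labels each genotype had 2 replicates, and the study's reporting summary gives 2 littermates of each, although the series' design text counts 3 animals for Mof+/-.

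Macrophages are a resident immune population of WAT that clears dying adipocytes and takes up lipid. Their identity depends on PU.1, the transcription factor encoded by Spi1, and on signalling through the receptor of CSF1 and IL-34, encoded by Csf1r. Adgre1, Itgam (CD11b) and Mrc1 (CD206) encode surface markers by which these cells are usually sorted. Trem2 encodes a lipid-sensing receptor typical of lipid-associated macrophages, Cd14 a co-receptor for lipopolysaccharide, Cd68 a lysosomal glycoprotein and Lyz2 a lysozyme. PU.1 is also used by B cells, so Spi1 alone does not mark a macrophage.

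MOF peaks were found at 2 of the 9 genes in Mof+/+ WAT, Spi1 with 4 peaks and Cd68 with 3, and at 0 of the 9 in Mof+/- WAT. Csf1r, Adgre1, Itgam, Cd14, Mrc1, Trem2 and Lyz2 had no peak in either list. In Mof+/+ the members' share was 22.2%, below the 44.5% of all protein-coding genes (9773 of 21938) that had a peak by the same rule. With peaks within 1 kb of a start alone the count was again 2 of 9, beside 41.0% of coding genes. In Mof+/- 1.89% of coding genes (415) had a peak, so a count of 0 among 9 genes lies near that background. Analysed here was 1 peak list per genotype, and neither names a library. The lists thus hold no replicate error, and no difference between the genotypes was tested from them. Signal tracks and single libraries were not analysed here. In whole tissue, fewer cells of a type and less MOF per cell cannot be told apart.

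CpG is the dinucleotide that is dense at the promoters of broadly active genes. Shown first are 101 bases around 2 of the 4 Spi1 summits and around the summit at the Cd68 start, since these genes were the only members with a peak. They run 5′ to 3′ on the gene's strand, with CpG sites in capitals. The Spi1 summit at the downstream starts, which is as strong as the intronic one shown and lies in a peak richer in CpG, falls in annotated UTR and is not printed. The weakest Spi1 peak is not printed either. The positions are chr2:91083200-91083300 on the + strand for the intronic Spi1 summit, chr2:91080502-91080602 on the + strand for the Spi1 summit ahead of the gene and chr11:69666366-69666466 on the − strand for Cd68, all in GRCm38.
Spi1 intron: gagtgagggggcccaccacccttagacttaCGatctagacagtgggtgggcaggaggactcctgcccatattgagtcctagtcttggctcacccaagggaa
Spi1 upstream: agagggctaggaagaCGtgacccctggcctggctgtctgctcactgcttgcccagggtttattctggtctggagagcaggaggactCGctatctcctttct
Cd68: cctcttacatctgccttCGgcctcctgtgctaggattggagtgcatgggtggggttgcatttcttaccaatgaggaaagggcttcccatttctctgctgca

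The promoters of the members are shown to compare Cd68, which carried a peak, with Lyz2, Itgam, Mrc1 and Trem2, which did not. The table of RefSeq promoters (GRCm38.p6) matched 5 of the 9 members, and Spi1, Csf1r, Adgre1 and Cd14 are named only. Each line is the part upstream of the first annotated transcript start in the window, 5′ to 3′, with CpG sites in capitals. Cd68 is chr11:69666171-69666420 (− strand), Lyz2 chr10:117282322-117282522 (− strand), Itgam chr7:128062390-128062639 (+ strand), Mrc1 chr2:14229164-14229391 (+ strand) and Trem2 chr17:48346151-48346400 (+ strand).
Cd68: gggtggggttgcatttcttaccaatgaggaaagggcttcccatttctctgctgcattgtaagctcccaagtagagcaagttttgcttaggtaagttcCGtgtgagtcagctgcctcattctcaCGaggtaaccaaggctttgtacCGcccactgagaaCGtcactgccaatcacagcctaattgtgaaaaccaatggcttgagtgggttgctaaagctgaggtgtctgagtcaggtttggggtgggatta
Lyz2: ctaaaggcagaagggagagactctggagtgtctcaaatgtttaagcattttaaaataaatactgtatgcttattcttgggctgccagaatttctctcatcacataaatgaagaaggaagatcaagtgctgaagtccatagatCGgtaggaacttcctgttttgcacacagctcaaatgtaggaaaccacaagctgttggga
Itgam: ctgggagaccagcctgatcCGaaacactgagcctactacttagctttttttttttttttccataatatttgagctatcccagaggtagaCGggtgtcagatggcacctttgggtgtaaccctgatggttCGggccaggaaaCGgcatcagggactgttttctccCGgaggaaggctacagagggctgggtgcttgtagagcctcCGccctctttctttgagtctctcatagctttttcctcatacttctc
Mrc1: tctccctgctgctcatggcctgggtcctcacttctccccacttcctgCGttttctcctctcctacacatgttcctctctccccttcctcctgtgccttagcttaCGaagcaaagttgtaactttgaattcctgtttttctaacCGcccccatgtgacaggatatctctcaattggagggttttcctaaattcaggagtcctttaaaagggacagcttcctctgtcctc
Trem2: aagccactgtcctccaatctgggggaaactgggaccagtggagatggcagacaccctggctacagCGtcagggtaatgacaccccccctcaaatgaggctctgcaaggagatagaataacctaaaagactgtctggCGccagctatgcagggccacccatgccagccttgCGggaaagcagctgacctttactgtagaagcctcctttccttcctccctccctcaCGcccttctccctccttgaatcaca

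The Cd68 line held 4 CpG sites in 250 bases, and the MOF summit lay at its base 5. The Itgam line held 6 CpG sites, the Trem2 line 4, the Mrc1 line 3 and the Lyz2 line 1. The number in the promoter with a peak was thus within the range of those without. GAGGAA, the core letters that PU.1 prefers, was searched on both strands. It occurred 1 time in the Cd68 line, 2 times in Itgam, 3 times in Mrc1, 1 time in Trem2 and 0 times in Lyz2. The lines differ in length, with 201 bases for Lyz2, 228 for Mrc1 and 250 for the others, so their counts are not like for like. Of all 32851 promoters in the table, each 300 bases long and so longer than any line, 28.3% held it. These matches describe the letters only.

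Spi1, the gene of PU.1, spans chr2:91082390-91115756 on the + strand (ENSMUSG00000002111.8) and has 4 annotated starts. Those form an upstream pair, at 91082390 and 91082408, and a downstream pair, at 91096096 and 91096780. Its 4 Mof+/+ peaks lay around both pairs. Fold enrichment here is the peak caller's ratio of summit fragments to input background, each plus 1. Its 95% interval is an exact Poisson interval on the fragments and covers counting error only. The peak over the upstream pair (chr2:91081795-91084880) was 3086 bp wide, against a median of 609 bp in the Mof+/+ list. Its fold enrichment was 5.53 (95% interval 3.62 to 8.12) from 24 fragments, higher than that of 94.1% of the list's peaks. The summit fell in a Spi1 intron, 842 bp after the nearest start. Measured from the start at 91096096, the same summit lay 12846 bp upstream.

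The peak at the downstream pair (chr2:91096797-91097151) was narrow, 355 bp, and equally strong, with a fold enrichment of 5.53 (3.62 to 8.12) from 24 fragments. Its summit lay in annotated Spi1 UTR, 98 bp after the start at 91096780 and 782 bp after the start at 91096096. The other peaks at Spi1 were weaker. One lay in intergenic sequence 1838 bp ahead of the gene (chr2:91080321-91080784, 464 bp wide), with a fold enrichment of 3.76 (2.24 to 5.97) from 16 fragments. The last lay in an intron 4904 bp after a start (chr2:91087014-91088567, 1554 bp), with a fold enrichment of 2.62 (1.61 to 4.06) from 18 fragments. The 18 fragments stood over an input background of 6.26, whereas the other 3 summits stood over 3.52, the lowest in the list. An enhancer known as the upstream regulatory element drives Spi1 in myeloid cells from far ahead of the main start. Its coordinates were not used here, and overlap with it was not computed.

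For every one of the 4 Spi1 peaks the nearest annotated start was a Spi1 start. Upstream, 2 further Mof+/+ peaks lay outside the 3 kb window. The nearer had its summit 3975 bp (fold enrichment 2.98) ahead of the first Spi1 start, and the other, which also lay outside a 5 kb window, 5558 bp (3.10). Their nearest coding start was also that of Spi1. No Mof+/+ peak was found in the part of the gene beyond the narrow peak at the downstream pair. The right-hand coding neighbour Mybpc3, a cardiac myosin-binding protein gene, had no promoter peak. On the left the coding neighbour Slc39a13 had 2, the stronger with a fold enrichment of 4.87 from 21 fragments. Within 100 kb of Spi1 there were 11 Mof+/+ peaks.

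Cd68 spans only 1941 bp (chr11:69664213-69666153, − strand, ENSMUSG00000018774.13) and has 2 annotated starts. The rule gave it 3 Mof+/+ peaks, and 1 of them was nearest to a Cd68 start. That peak (chr11:69665916-69667119, 1204 bp wide) covered the Cd68 start, with its summit 263 bp upstream in intergenic sequence. Its fold enrichment was 4.87 (3.10 to 7.32) from 21 fragments, higher than that of 87.6% of the list. The strongest of the 3 (chr11:69661757-69663743, 1987 bp) had a fold enrichment of 5.75 (3.80 to 8.38) from 25 fragments. Its summit, however, lay in coding sequence of Mpdu1, 29 bp from an Mpdu1 start and 3587 bp from the nearest Cd68 start. The third (chr11:69668283-69668661, 379 bp) had a fold enrichment of 2.88 (1.59 to 4.86) from 12 fragments. It lay in coding sequence of Eif4a1, a translation initiation factor gene, 161 bp from an Eif4a1 start. One more peak, with its summit 3929 bp ahead of Cd68 (fold enrichment 2.90), fell just outside the window. Cd68 thus sat between genes that carried peaks of their own, and 1 of its 3 peaks was at its own start.

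**Figure D1:**
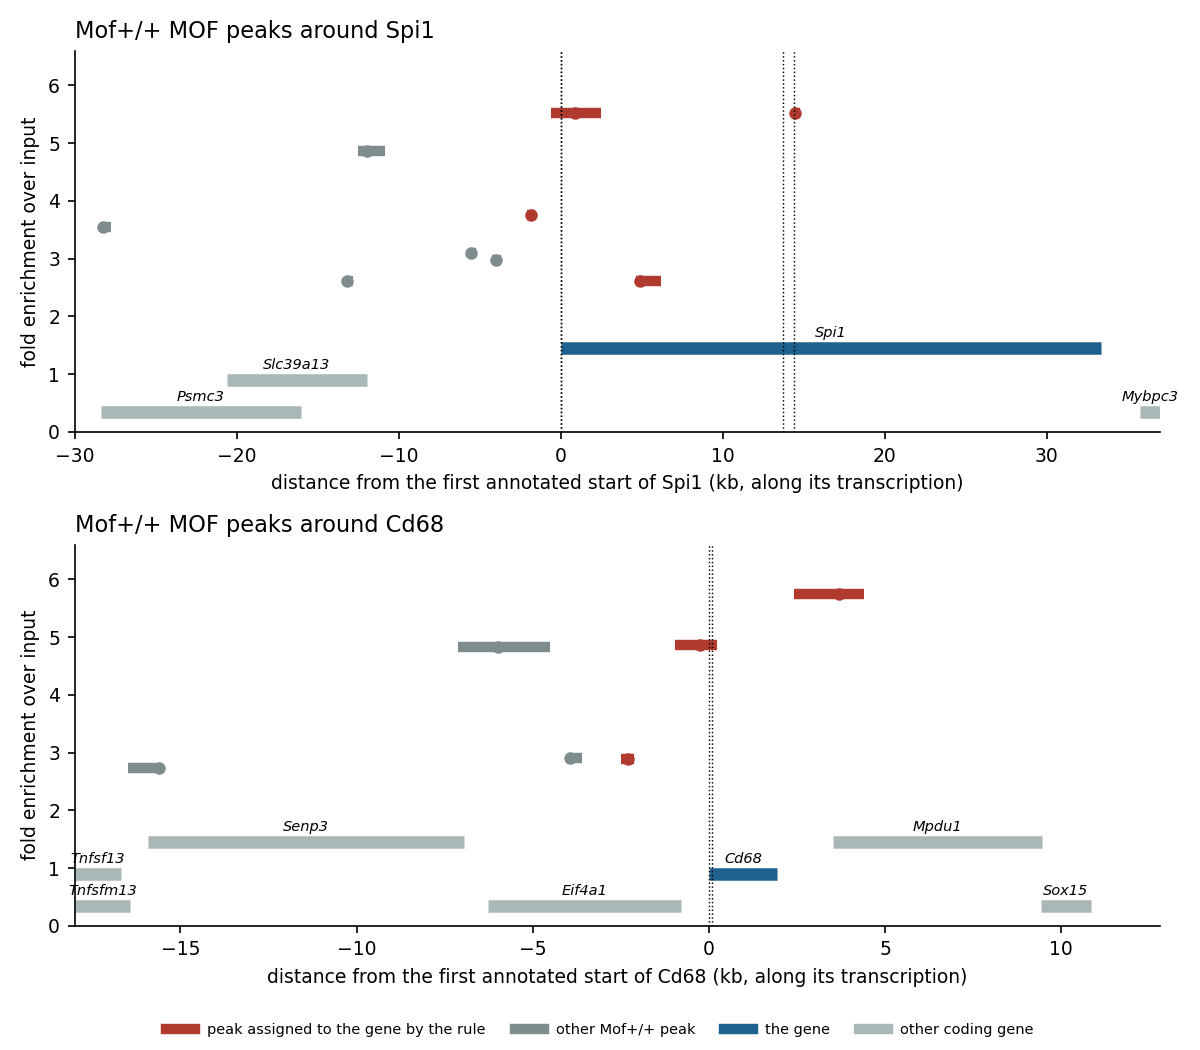
Mof+/+ MOF peaks around Spi1 (top) and Cd68 (bottom), by distance from the gene's first annotated start in kb along its direction of transcription (x axis) and fold enrichment over input (y axis). Thick bars are peaks with their summits as points, red where the rule gave the peak to the gene. The lower bars are genes, with no value on the y axis, and dotted lines are the gene's annotated starts. The strongest Spi1 peaks, both at 5.53, sit at the upstream and downstream start pairs, while the peaks at 5.75 and 2.88 near Cd68 lie at Mpdu1 and Eif4a1.

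The 7 peaks had a median fold enrichment of 4.87, beside a median of 3.40 (interquartile range 2.90 to 4.17) over the 19753 peaks of the Mof+/+ list. 5 of the 7 were nearest to a start of the member itself. CpG density varied widely between them. The list had a median of 24.5 CpG sites per kb (interquartile range 12.0 to 62.9). The Cd68 start peak held 8.31 per kb and the Spi1 peaks ahead of the gene and in the distal intron 8.62 and 10.3, all under the lower quartile. The Spi1 peak over the upstream starts held 14.6 and the Eif4a1 peak 13.2. The peaks at the downstream Spi1 start, with 36.6, and at Mpdu1, with 37.7, were above the median. Chromatin was cut with CviKI-1, an enzyme with the site RGCY in standard ambiguity letters, and its sites per kb ranged from 10.6 in the Eif4a1 peak to 36.6 in the downstream Spi1 peak. The list's interquartile range was 15.7 to 26.9. The part of the enzyme's sites in these peaks was not tested.

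In Mof+/- WAT none of the 7 peaks was overlapped by a Mof+/- peak. Over the whole Mof+/+ list 481 of 19753 peaks (2.44%) were, so 0 of 7 is near that background. Nearest to Cd68 was a Mof+/- peak 83160 bp away, in an intron of the tumour suppressor gene Trp53, with a fold enrichment of 4.60. On chromosome 2 the closest one to Spi1 was 7551 kb away, in coding sequence of Gm10800, with a fold enrichment of only 1.35 and no whole-fragment solution. The lists give no library totals, so depth was read from their background, on the assumption that the lowest value scales with depth. This was not checked against read totals. The lowest input background was 3.52 fragments in Mof+/+ and 2.26 in Mof+/-, a ratio of 1.56, and the weakest Mof+/- peak had a −log10 p of 4.72 against 3.25. At the lowest Mof+/- background 11 fragments, a fold enrichment of 3.68, were needed to reach that p.

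Scaled by that ratio at an unchanged enrichment, 4 of the 7 peaks would have held enough fragments. Those were both strong Spi1 peaks, with 15.4 fragments each (95% interval 9.88 to 22.9), the Mpdu1 peak near Cd68, with 16.1 (10.4 to 23.7), and the Cd68 start peak, with 13.5 (8.35 to 20.6). All 4 intervals reach below 11. The Spi1 peak ahead of the gene would have held 10.3 and the Eif4a1 peak 7.71, both under 11. The distal intronic Spi1 peak would have held 11.6, under the 15 needed over its higher background. With 12 to 25 fragments a peak, absence of a weak peak from the Mof+/- list could thus not be told apart from lower depth in that list, and even the strong peaks had little margin.

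**Figure D2:**
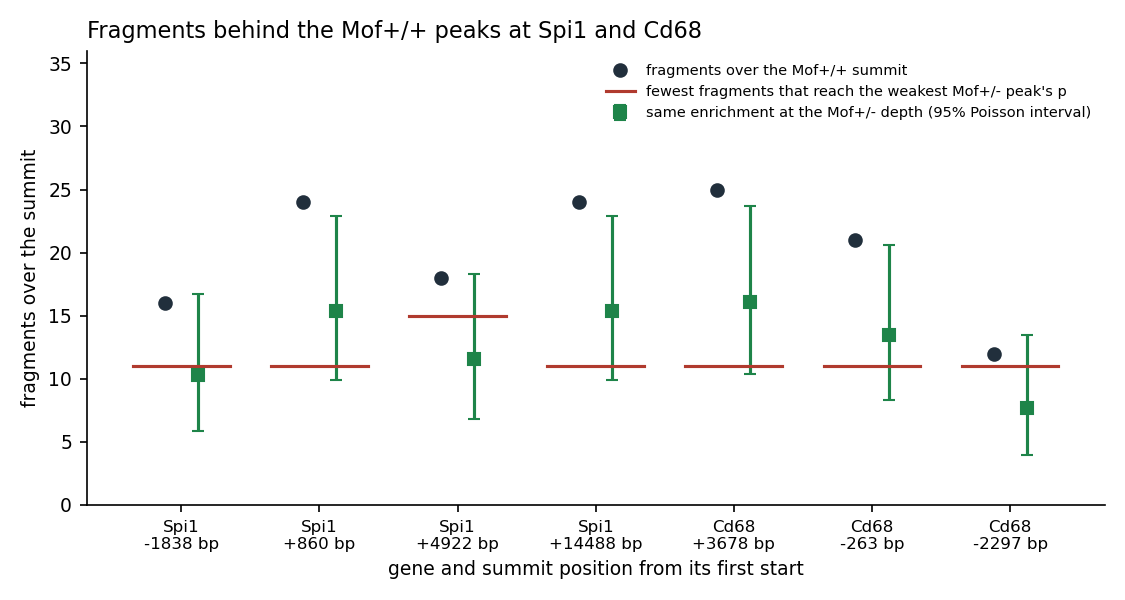
Fragments over the summit (y axis) for the 7 Mof+/+ peaks that the rule gave to Spi1 and Cd68, each placed by its summit's distance from the first start (x axis). Black points are the Mof+/+ fragments, green squares the same enrichment at the Mof+/- depth, estimated from the background ratio, with a 95% Poisson interval, and red lines the fewest fragments that reach the p of the weakest Mof+/- peak. 4 green squares lie above their red line, but each interval crosses it.

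Apart from Mrc1, the members without a peak lay in regions that held peaks. Csf1r, the receptor gene that macrophages need for survival, lay 44309 bp from the nearest Mof+/+ peak, one at Hmgxb3 with a fold enrichment of 5.02. Cd14 was closest, 7621 bp from a peak in an intron of Tmco6 (fold enrichment 4.87). Adgre1 was 13353 bp from an intergenic peak (2.56), and Trem2 34705 bp from a peak in the UTR of Treml2 (3.10), another gene of the Trem family. The distances were 52608 bp for Lyz2, to a peak in coding sequence of Yeats4 (6.19), and 57365 bp for Itgam, to a peak in an intron of Trim72 (2.90). Mrc1 was farthest, 154758 bp from a peak near Stam (3.98). Over the 12165 coding genes without a Mof+/+ peak, the median distance was 98.8 kb (interquartile range 27.2 to 381). Thus 6 of the 7 were nearer than that median.

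Within 100 kb of the gene there were 3 Mof+/+ peaks for Csf1r, 4 for Lyz2, 7 each for Adgre1, Trem2 and Cd14 and 8 for Itgam. Mrc1 had 0 in that region. All coding genes had a median of 3 (interquartile range 0 to 7), and 8 of the 9 members were at or above it. The long members held none. Adgre1 spans 124837 bp, Mrc1 102666 bp and Itgam 55852 bp. Of these 3, 0 had a peak in the body or within 3 kb of a start. By the same rule 51.9% of the 5007 coding genes of 50 kb or more had one. With 3 genes this is a description only.

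Immediate neighbours were also examined. Within 1 kb of a start 41.0% of all coding genes had a Mof+/+ peak. Of the 14 coding genes that flank the 7 members without a peak, 4 had such a peak. Next to Adgre1 that was Vav1, a signalling gene of blood cells, with a fold enrichment of 5.09 from 22 fragments. The others were Tmco6 next to Cd14 (4.87), Slc26a2 next to Csf1r (3.59) and Trim72 next to Itgam (2.90). The paralogues beside members, Lyz1 next to Lyz2, Itgax next to Itgam and Treml1 next to Trem2, had none. Pdgfrb, the receptor gene beside Csf1r, had none either. Where members are near-identical in sequence, as Lyz1 and Lyz2 are in part, reads that match both can be lost or split, and how the authors treated them was not given in the sources used here.

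In the Mof+/- list the nearest peaks were far from these 7 genes. Csf1r was closest, 296 kb from a peak at Cd74, the gene of the invariant chain of MHC class II. Itgam was 823 kb away, Cd14 893 kb, Adgre1 1414 kb, Mrc1 2694 kb, Trem2 2773 kb and Lyz2 6266 kb. The median over all coding genes was 1813 kb, and members lay on both sides of it.

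**Figure D3:**
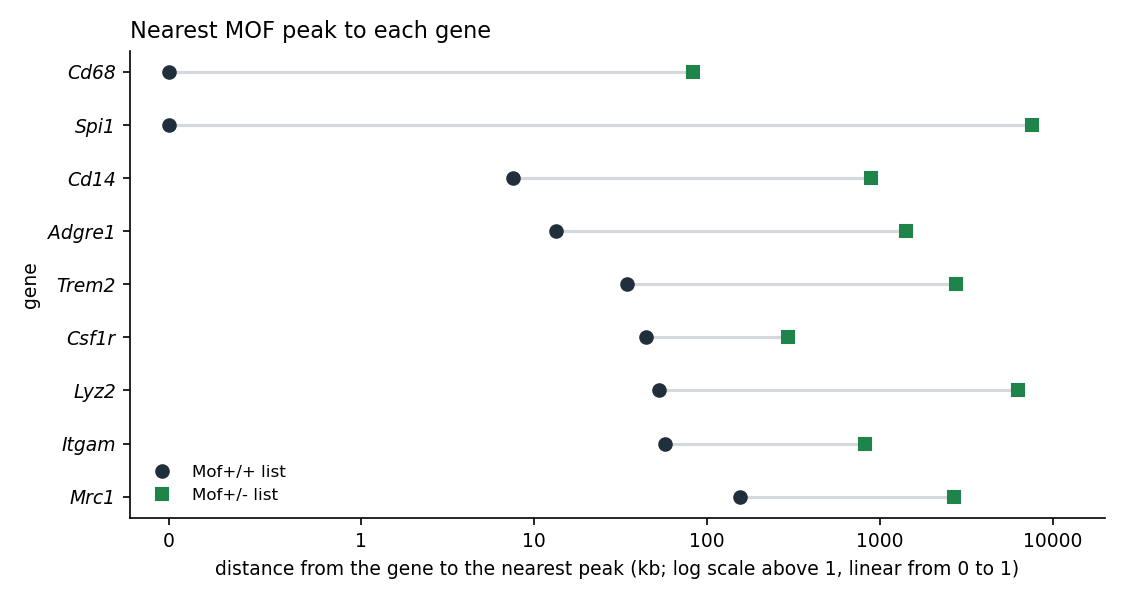
Distance in kb from each gene to the nearest peak of the Mof+/+ list (black circles) and of the Mof+/- list (green squares), on an axis that is linear from 0 to 1 kb and logarithmic above. Only Spi1 and Cd68 are at 0, and Cd14, at 7.62 kb, is the nearest of the genes without a Mof+/+ peak.

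The starts of these genes had few CpG sites, a property the choice of genes did not use. It was not particular to them, since the lists of other cell types below also had medians under that of all coding genes. CpG sites were counted over the 1001 bp centred on each annotated start, and the start with most sites was taken for each gene, which gives genes with more starts more chances. All coding genes had a median of 50 and an interquartile range of 16 to 77. The members ranged from 5 in Lyz2 and 6 in Adgre1, through 10 in Mrc1, 12 in Trem2, 13 in Itgam, 14 in Csf1r and 15 in Cd68, to 22 in Cd14 and 29 in Spi1. All 9 were under the median, and 7 were at or under the lower quartile. Of the 5560 coding genes at or under it 6.42% had a Mof+/+ peak, against 75.1% of the 5581 at or above the upper quartile. Of the 7 members at or under the lower quartile 1, Cd68, had a peak. The value of 29 in Spi1 comes from the start at 91096780, and its upstream starts had 14 each. The part of CpG content in the members' counts was not tested.

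**Figure D4:**
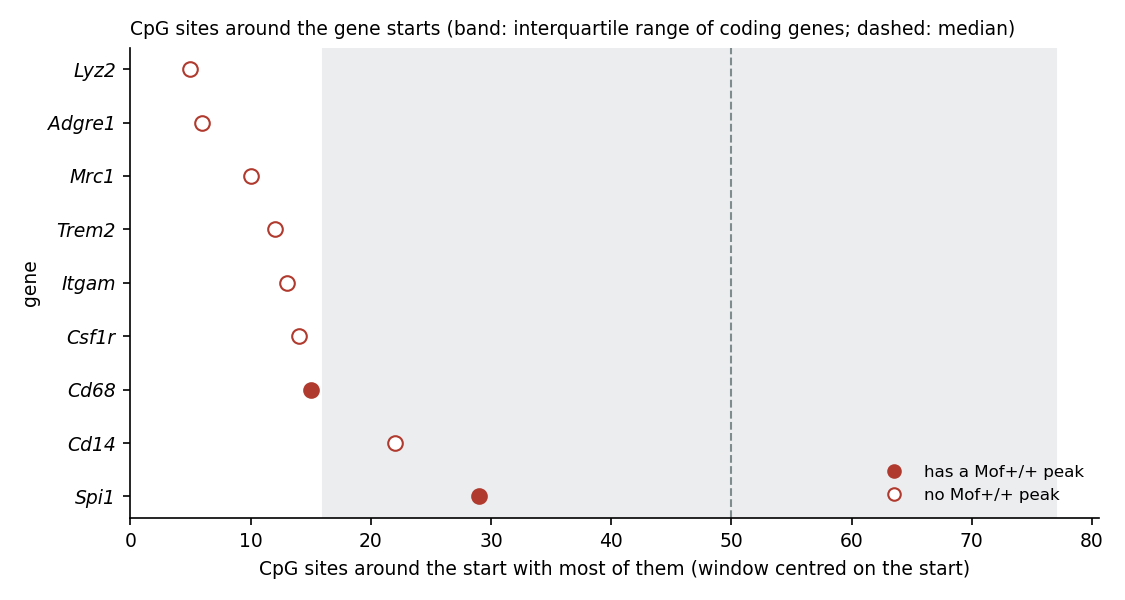
CpG sites in 1001 bp centred on the start with most of them (x axis), for each of the 9 genes (y axis). Filled points are genes with a Mof+/+ peak and open points genes without, the grey band is the interquartile range of all coding genes (16 to 77) and the dashed line their median (50). All 9 points lie left of the dashed line, and the filled points, Cd68 at 15 and Spi1 at 29, are among the 3 highest.

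The wider myeloid programme was read from 7 lists of 72 genes. Of these, 38 (52.8%) had a Mof+/+ peak, beside 44.5% of coding genes, and 1 had a Mof+/- peak. For 35 of the 38 at least 1 peak was nearest to the gene's own start. The lists differed. Transcription factors of myeloid cells had a peak at 10 of 14 genes. Their highest fold enrichment was at Zeb2 (6.19, 4.16 to 8.91), a repressor that maintains tissue macrophage identity, and at Runx1 (5.97, 3.98 to 8.65), a factor of blood cell development. The peak counted for Nr1h3, the gene of the lipid-sensing receptor LXR alpha, had a fold enrichment of 5.97 but lay 155 bp from a start of Madd and 7272 bp from its own. Spic, Batf3 and Tfec were among those without.

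Zeb2 was the 1 gene of the 72 with peaks in both genotypes. Its Mof+/- peaks were chr2:45110152-45110469, 78 bp from a start, with a fold enrichment of 3.99 (2.21 to 6.73) from 12 fragments, and chr2:45116403-45116759, 762 bp from a start, with 3.04 (1.79 to 4.89) from 15 fragments. Each overlapped a different Mof+/+ peak, and each of these had a fold enrichment of 6.19.

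Among ligands and receptors of the colony-stimulating factors, 2 of 7 had a peak. They were Csf2ra, a chain of the GM-CSF receptor (4.44, 2.86 to 6.63), and Csf1, the ligand of the Csf1r protein (3.10, 1.75 to 5.14). Il34, its other ligand, had none, nor had Csf2, Csf3, Csf2rb and Csf3r. The receptor Csf1r and 1 of its 2 ligands thus lacked a peak.

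TREM2 signals through adaptor proteins to kinases and a phospholipase. In the list of TREM2 and Fc receptor signalling 7 of 12 genes had a peak, though Trem2 did not. Plcg2, the phospholipase of this pathway, had a fold enrichment of 5.97 (3.98 to 8.65) with the summit 170 bp from its start. Apoe, a TREM2 ligand and lipid carrier, had 5.31 (3.45 to 7.86) at 262 bp. For Hcst, the adaptor DAP10, the peak of 6.19 lay 136 bp from a start of Nfkbid and 2014 bp from its own. The 5 genes without a peak were the Fc receptor genes Fcer1g, Fcgr1, Fcgr2b, Fcgr3 and Fcgr4.

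CD14 hands lipopolysaccharide to TLR4 and its partners. Of the 8 other genes of this recognition pathway 7 had a peak, and 6 had one within 1 kb of a start. Ticam1, the TRIF adaptor, had a fold enrichment of 4.65 (2.92 to 7.05), Ly96, the MD-2 subunit that binds the ligand, 3.54 (2.08 to 5.69) and Lbp, the serum binding protein, 3.51 (2.06 to 5.65), the latter 9248 bp from its start. Tlr2 was the gene without one. Itgam is an integrin alpha chain, and 5 of 7 other integrin and adhesion genes had a peak. Itga4, an integrin alpha chain of leukocytes, had 4.87 (3.10 to 7.32). The highest value of any listed myeloid gene, 8.85 (6.36 to 12.0), was counted for the chemokine receptor gene Cx3cr1, but that summit was 84715 bp from its nearest Cx3cr1 start and 211 bp from a start of Csrnp1. Itgax and Ccr2 had none.

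Scavenger and phagocytic receptors, the group to which Mrc1 belongs, had a peak at 1 of 12 genes. It was Cd36, a fatty acid transporter that adipocytes also use, with 2.88 (1.59 to 4.86) from a summit 2276 bp from its start. Cd163, Msr1, Marco, Mertk, Timd4, Clec7a, Siglec1, Lyve1 and Folr2 were among the 11 without. Complement C1q and lysosomal proteins, the company of Cd68 and Lyz2, had a peak at 6 of 12 genes. Ctss, a cathepsin of antigen-presenting cells, had 4.42 (2.75 to 6.78), and Mpeg1, the macrophage perforin, 3.76 (2.24 to 5.97) from a summit 3645 bp from its start. For Ctsd, a lysosomal protease, the peak of 3.54 (2.08 to 5.69) lay 404 bp from a start of Gm49369 and 5556 bp from its own. C1qa, C1qb and C1qc, made largely by macrophages in most tissues, had none, nor had Lyz1, Lamp2 and Gpnmb.

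CpG counts and the share with a peak did not follow a single order over these lists. The median start had 89.5 CpG sites in the transcription factor list, where 71.4% of genes had a peak, and 10.0 in the scavenger receptor list, where 8.33% had one. Integrin and adhesion genes, however, had a median of 15.0 and also 71.4% with a peak. TREM2 and Fc receptor signalling had 17.0 and 58.3%, C1q and lysosomal proteins 24.5 with a peak at 6 of 12, lipopolysaccharide recognition 30.0 and 87.5%, and the colony-stimulating factors with their receptors 18 and 28.6%. The members had a median of 13.0. In the lipopolysaccharide list the 7 genes with a peak had a median of 25.0, and Tlr2, the 1 gene without, had 35.0. The 1 scavenger receptor gene with a peak had 8.00, against a median of 11.5 for the 11 without. No test was run on these values. Over the 72 genes the median was 49.0 for the 38 with a peak and 15.0 for the 34 without. Of the 28 at or under the lower quartile of coding genes 10 had a peak, beside 6.42% of all coding genes there.

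Genes of other cell types in WAT were read by the same rule, with 9 genes each. By that rule 44.5% of all coding genes had a Mof+/+ peak and 1.89% a Mof+/- peak. B cell genes had a Mof+/+ peak at 9 of 9, T cell genes at 8 of 9, adipocyte genes at 8 of 9 and endothelial genes at 3 of 9. The median start had 15.0 CpG sites in the B cell list and 30.0 in the adipocyte list, with the T cell and endothelial lists between. Each was under the coding median of 50, as was the members' median of 13.0. At or under the lower CpG quartile, where 6.42% of all coding genes had a peak, 5 of 5 B cell genes had one, 2 of 2 adipocyte genes, 1 of 1 T cell gene and 1 of 7 members, and no endothelial gene was in that group. A Mof+/- peak was found at 1 B cell gene (Pax5), 1 endothelial gene (Flt1), 0 T cell genes and 0 adipocyte genes. These lists were chosen with earlier results of these data known. They were read for their counts, and no difference between them was tested. Whether the tissue expressed the genes was not analysed here, and a peak does not show which cell type carried it.

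**Figure D5:**
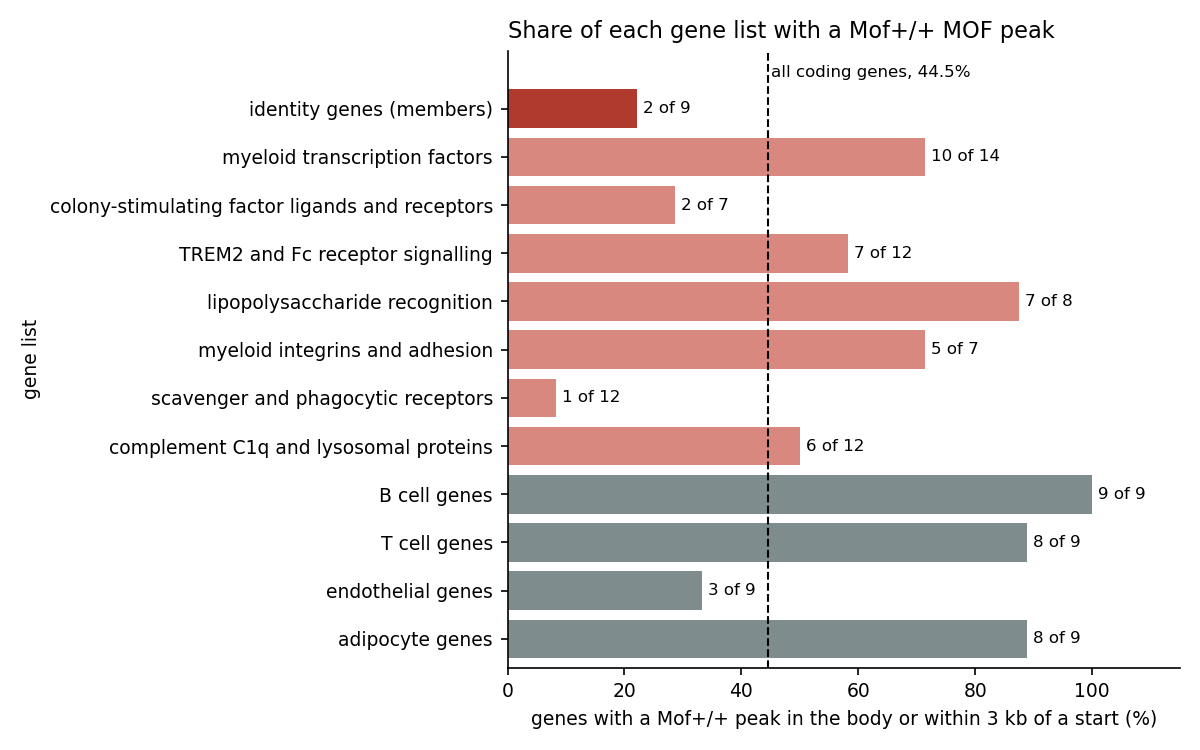
Share of the genes in each list (y axis) that had a Mof+/+ peak in the body or within 3 kb of a start (x axis, percent), with the count beside each bar. The dashed line is the share of all coding genes (44.5%). The 9 identity genes (22.2%) lie left of the line, as do the colony-stimulating factor, scavenger receptor and endothelial lists.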

How the data were processed

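MOF ChIP-seq peaks of Mof+/+ and Mof+/- visceral WAT were analysed, 1 deposited list per genotype. The authors mapped reads to GRCm38 and called peaks against input with MACS2 (version 2.1.1.20160309.3 in the submitters' processing notes). How replicates were combined is not given in the sources used here. The methods mention a merge of peaks up to 1000 bp apart, but 3789 neighbouring pairs of the Mof+/+ and 144 of the Mof+/- list were that close, so the lists were taken as unmerged. The fold enrichment is a ratio made by the authors' caller, and the summit's −log10 p-value was deposited with it, as was a −log10 q-value. The summit offset was used as a coordinate. 1 value column of each list was not used. Peaks on chromosomes 1 to 19, X and Y were kept, which left out 20 Mof+/+ and 15 Mof+/- peaks on scaffolds. The lists give no library totals. Fragments and input background were solved from fold and p, to within 0.001 in −log10 p, and checked on simulated data. Genes are GENCODE M21 with coordinates from 1, and sequence is GRCm38.p6. Python 3.11.15, numpy 2.4.6, pandas 2.3.3, scipy 1.17.1 and pysam 0.24.0 were used.

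The members and lists were chosen with earlier results of these data known. All members were named with every peak or the nearest one. In the wider lists, genes with a Mof+/- peak and the 3 of each list with the highest fold were named, except for a few results not reported here. No test was run, since neither list separates the 2 replicates of its genotype. Signal tracks were not analysed here.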

Additional observations from a re-analysis of the deposited data

How the results depend on the processing

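Of 65 alternatives to the settings, 59 left the count or value within 1.5 times of the reported one, and 6 moved it. When the Mof+/+ list was limited to as many of its strongest peaks as the Mof+/- list holds, 0 members had a peak, 0 within 1 kb of a start, 0 peaks were left at the members and 5 of the 72 wider myeloid genes had one. With a 1 kb window and the gene body, or the gene body alone, 4 of the 7 peaks at the members were left. The number of members with a Mof+/+ peak was 2 under every other alternative, and the number with a Mof+/- peak was 0 under all. The Mof+/- counts and overlaps of 0 are among the 59, but no setting tried could have moved them. The nearest Mof+/- peak lay 83160 bp from a member and 80704 bp from a member's peak, beyond every window, and stricter cutoffs only remove peaks. No paired analysis was possible because the peak lists, the files analysed here, do not separate the 2 replicates of a genotype, and for that reason no replicate was left out. Peaks at the members rested on 12 to 25 fragments, so a gene without a peak may hold MOF under the caller's threshold.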
